A study of Mus musculus with 16 samples.

Results

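The subunits of the mitochondrial respiratory chain and of ATP synthase were described in CD4 T cells that met antigen in living mice. A gene was taken when its symbol was Cycs, the gene of cytochrome c, or began with Nduf, Uqcr, Cox4 to Cox8 or Atp5, or was Sdha, Sdhb, Sdhc or Sdhd. Of 18193 genes measured on the array, 91 met this rule. They comprise 34 genes of complex I, 4 of complex II, 8 of complex III, 19 of complex IV, 17 of complex V, which is ATP synthase, 8 Ndufaf genes, whose products assemble complex I, and Cycs. Complex IV here includes 9 tissue isoforms or related genes.

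The cells were lymph node T cells from donors transgenic for the AND T cell receptor, which recognises a peptide of moth cytochrome c. They carried the congenic marker CD90.1 and were sorted as CD4+CD90.1+ cells from subcutaneous lymph nodes 60 h after transfer into recipients of the B10.BR background. The labels give an age of 6 to 8 weeks. All recipients carried TIM, the transgene of the peptide antigen. Recipients of the transient and persistent groups also carried Ii-rTA, the doxycycline-dependent activator named for the invariant chain gene. Recipients without antigen lacked Ii-rTA, so every comparison with them is also one of recipient genotype. Transient antigen followed from doxycycline up to the day of transfer, and persistent antigen from doxycycline throughout. The titles of the groups without antigen say that no doxycycline was given, but of their 5 arrays 3 have a protocol with doxycycline throughout and 2 have no schedule. In each regime recipients received either PBS or FGK45.5, an antibody that stimulates CD40 and activates dendritic cells. There were 3 arrays each for no antigen, transient and persistent antigen with PBS, 2 for no antigen with anti-CD40, 2 for transient antigen with anti-CD40 and 3 for persistent antigen with anti-CD40. The labels do not say whether arrays of a group came from separate mice, and the p-values therefore reflect only how these samples vary, which may be technical.

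Complexes I and II pass electrons from NADH and succinate to ubiquinone, complex III passes them on to cytochrome c, and complex IV passes them to oxygen. Complexes I, III and IV pump protons across the inner mitochondrial membrane, and ATP synthase makes ATP as protons flow back through it. The genes considered here are nuclear. Activated T cells are known to enlarge and remodel their mitochondria before and during division, and many of these genes are known targets of the transcription factors NRF1 and GABP.

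The promoters of 4 genes are shown because these genes carry the results that follow. Sdhd encodes a membrane anchor of complex II, Uqcr11 a small subunit of complex III, and Cycs the electron carrier. Cox7a2l encodes a factor that joins complexes III and IV into supercomplexes. The sequences are from RefSeq, build GRCm38.p6, all on the minus strand, from 250 bases before to 50 bases after the start of the gene, and capitals mark matches to NRF1 (GCGCA, any base, GCGC) or to ETS factors and GABP (CCGGAAG) on either strand.
Sdhd, chr9:50603800-50604099: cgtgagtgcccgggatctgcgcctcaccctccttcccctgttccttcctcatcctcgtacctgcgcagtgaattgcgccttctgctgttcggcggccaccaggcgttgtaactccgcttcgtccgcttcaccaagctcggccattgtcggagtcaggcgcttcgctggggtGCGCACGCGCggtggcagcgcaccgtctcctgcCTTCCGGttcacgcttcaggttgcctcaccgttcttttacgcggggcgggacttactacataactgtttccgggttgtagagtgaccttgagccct
Uqcr11, chr10:80406772-80407071: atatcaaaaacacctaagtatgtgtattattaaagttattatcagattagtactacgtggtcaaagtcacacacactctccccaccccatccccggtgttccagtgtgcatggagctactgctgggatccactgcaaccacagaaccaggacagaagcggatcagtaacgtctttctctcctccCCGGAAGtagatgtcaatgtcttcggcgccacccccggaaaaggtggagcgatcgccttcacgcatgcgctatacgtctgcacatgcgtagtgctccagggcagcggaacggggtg
Cycs, chr6:50566520-50566819: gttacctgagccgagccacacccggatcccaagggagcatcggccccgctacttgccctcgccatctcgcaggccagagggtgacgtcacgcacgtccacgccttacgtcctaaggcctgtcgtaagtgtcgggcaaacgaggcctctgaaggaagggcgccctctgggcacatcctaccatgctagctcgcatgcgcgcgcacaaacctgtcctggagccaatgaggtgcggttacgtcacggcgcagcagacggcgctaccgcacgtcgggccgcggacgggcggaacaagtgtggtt
Cox7a2l, chr17:83514284-83514583: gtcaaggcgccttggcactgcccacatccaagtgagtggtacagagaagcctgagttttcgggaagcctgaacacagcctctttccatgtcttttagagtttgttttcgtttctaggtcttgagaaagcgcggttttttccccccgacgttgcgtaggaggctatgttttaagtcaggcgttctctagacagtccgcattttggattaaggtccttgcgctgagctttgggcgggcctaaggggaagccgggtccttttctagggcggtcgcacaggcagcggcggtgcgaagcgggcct

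The Sdhd promoter holds one match of each kind, that of Uqcr11 a match to the ETS and GABP motif, and those of Cycs and Cox7a2l neither. Of the 91 genes, 75 had a promoter in the table. The NRF1 letters were found in 22.7% of these and in 5.19% of all genes in the table, and the ETS and GABP letters in 25.3% and 9.93%. YY1 letters (ATGGCGGC) were found in 8.0% and 2.6%. The table holds 27025 genes, more than the 18193 measured, and they were not matched to the 91 genes by level or base content. Whether the difference in shares is particular to these genes was not tested. A match is no proof of a site, and a missing match says only that these letters are not in this window.

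The array held 183 probe sets of the 91 genes, and the brightest represented each gene. Their levels, as log2(intensity + 1), averaged 2.60 to 12.18 over the arrays with a median of 8.45, against a median of 4.94 over all genes. 85 genes lay above the array's median probe set and 6 below it: Cox6b2, Cox7a1, Cox7b2, Cox8b, Ndufb1 and Ndufb4. For 22 genes the probe set is of a kind that can also bind related transcripts, and brightness depends on the probe, so levels are not ranked between genes. The arrays held CD4 T cell transcripts: 7 of 8 such markers were measured and all 7 lay above the median probe set. Their summed intensity was 6854.6 to 10458.1. Markers of B cells summed to 64.1 to 250.8 (4 of 5 measured, 1 above the median probe set), with the highest value in an array without antigen with anti-CD40, and their part in the results was not tested. Of the B cell genes, Cd79a lay at 3.13 to 3.93 and Ms4a1, which encodes CD20, at 4.45 to 7.66, where the median probe set was 4.37. Dendritic cell and macrophage markers summed to 136.5 to 272.8 (6 of 7 measured, 4 above the median probe set), with Lyz2, the lysozyme gene, at 5.16 to 6.92. Their part in the results was not tested either. In bulk samples, fewer cells of a type and less RNA per cell cannot be told apart.

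Replicate numbers mattered. Arrays with the same number deviated together from their group means, with correlations of 0.48 to 0.81 in 36 pairs, against -0.81 to 0.60 in 70 pairs with different numbers, so each comparison was fitted without and with the replicate number as a block. Deviations within a group cancel out, so high values for the same number lower those for different numbers, and the contrast is partly built in. Arrays of replicate 2 had a lower mean intensity (83.5 to 101.4) than the others (106.3 to 120.6). The array numbers in the labels also fall into 4 runs: replicate 1 and replicate 3 are 1 run each, but within replicate 2 the arrays without antigen and those with antigen belong to different runs.

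The median level of the 91 genes was lowest without antigen. With PBS it was 8.22, 7.65 and 8.51 without antigen (replicates 1, 2 and 3), 8.33, 8.40 and 8.75 with transient antigen, and 8.77, 8.52 and 9.08 with persistent antigen. With anti-CD40 it was 8.37 and 7.72 without antigen, 8.81 and 8.54 with transient antigen, and 8.65, 8.65 and 9.09 with persistent antigen. Within each replicate number the array without antigen lay below the array with persistent antigen, but groups overlapped across numbers, with a pooled SD of 0.32 within groups.

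**Figure D1:**
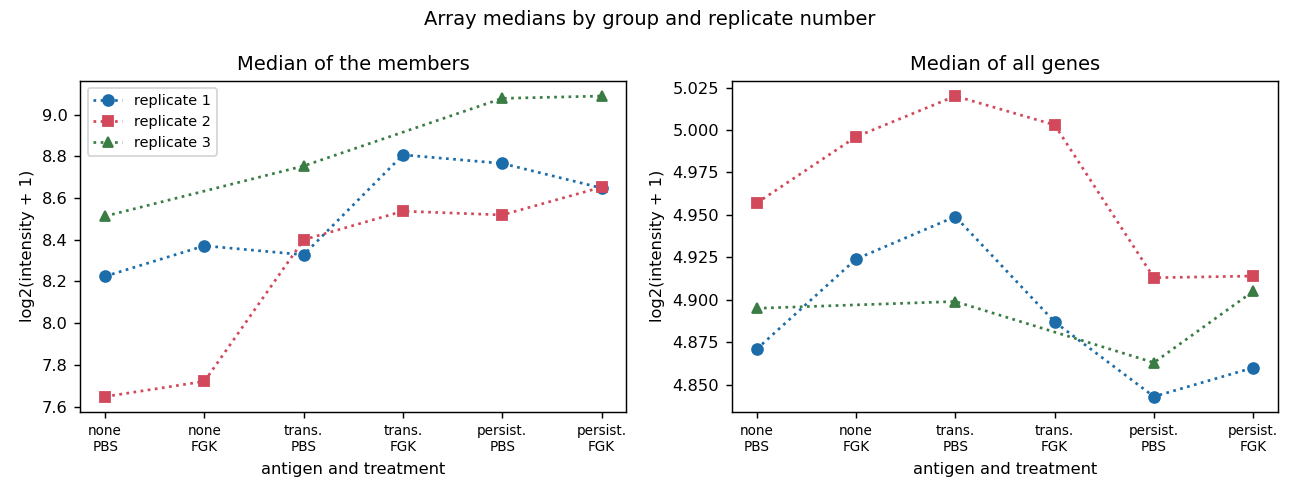
Median level, as log2(intensity + 1), of the 91 genes (left) and of all 18193 genes (right) on each array, by group, with a marker and a dotted line for each replicate number. With PBS the median of the 91 genes rises from no to persistent antigen in all 3 replicate numbers, while the median of all genes lies between 4.84 and 5.02.

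Persistent antigen was compared with no antigen first, with PBS. Genes of every complex had higher levels, by a median of 0.64 on the log2 scale over the 91 genes against -0.03 over all genes, and 84 of the 91 differences were positive. Without the block, 5 of 91 rose and none fell, against 2.2% of all genes that rose and 3.57% called in either direction. With the replicate block, 55 rose and 1 fell, against 9.93% and 6.79% of all genes, 16.7% in all. The difference was in the same direction in all 3 replicate numbers for 72 genes that were higher (79.1%, against 20.5% of all genes). Within replicate numbers the median was 0.60, 0.73 and 0.49, the second of these between runs. With the runs as the block 52 genes passed, and with replicates 1 and 3 alone and the block 50. The 5 calls made without the block were Cycs, Uqcr11, Ndufs5, Ndufaf6 and Atp5l, each lost in 4 to 12 of 16 cases with 1 array left out. Leaving out replicate 2 without antigen lowered the median to 0.41 without the block and to 0.55 with it.

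Cycs measured 9.52, 9.23 and 9.99 without antigen and 10.58, 10.65 and 10.86 with persistent antigen, both with PBS. These groups did not overlap. The difference was 1.11 ± 0.27 (SE, limma, adjusted p = 0.036), and with the block adjusted p = 0.00079. A further 2 probe sets of Cycs that lay above the median probe set rose as well, by 1.57 and 1.32 in the blocked fit over all probe sets.

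In complex II, 3 of 4 genes rose with the block. Sdhd measured 7.89, 6.28 and 7.08 without antigen and 9.21, 7.78 and 9.18 with persistent antigen. The groups overlapped, with replicate 2 low in both. The difference of 1.64 passed with the block (± 0.22 SE, adjusted p = 2.2e-05) and not without it (± 0.53, adjusted p = 0.14). A second probe set of Sdhd gave 0.35 (adjusted p = 0.44). Sdha, the flavoprotein that oxidises succinate, rose by 0.71 ± 0.14 with the block (adjusted p = 0.0012, 0.61 without it), but its second probe set, of like brightness, gave 0.08 (adjusted p = 0.84), and its other 2, far dimmer, gave -0.06 and -0.04. Sdhb, the iron-sulphur subunit, rose by 0.60 ± 0.15 (adjusted p = 0.0072 with the block, 0.35 without). Sdhc, the other membrane anchor, gave 0.02 ± 0.15 (adjusted p = 0.95 with the block).

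In complex III, 5 of 8 genes rose with the block. Uqcr11 measured 6.02, 5.75 and 6.43 without antigen and 7.27, 7.44 and 7.01 with persistent antigen. The groups did not overlap, and the rise of 1.17 ± 0.24 passed without the block (adjusted p = 0.014) and with it (0.00026). Uqcrq, a small subunit, rose by 1.39 ± 0.21 with the block (adjusted p = 9.8e-05, 0.33 without), Uqcrc1, a core protein, by 1.03 ± 0.21 and Uqcrfs1, the Rieske iron-sulphur protein, by 1.0 ± 0.17. None of the 3 other probe sets of Uqcrq passed in the blocked fit over all probe sets. Of these, 1 above the median probe set was lower. Uqcrb, a small subunit, rose by 0.50 ± 0.12. Uqcrc2, the other core protein, gave 0.24 ± 0.15 and Uqcrh, the hinge protein, 0.06 ± 0.17, and neither passed.

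Of the 34 genes of complex I, 22 rose with the block and none fell, with a median of 0.65. Ndufs5 alone also passed without the block. It measured 4.83, 4.45 and 4.82 without antigen and 5.68, 5.47 and 5.83 with persistent antigen, with no overlap (0.96 ± 0.22, adjusted p = 0.026). Ndufc1 showed how far replicate numbers moved a gene. It was 8.87, 5.65 and 8.93 without antigen and 10.09, 6.84 and 10.45 with persistent antigen, so replicate 2 lay over 3 units below the others in both groups. Its difference of 1.31 was ± 1.34 without the block and ± 0.17 with it (adjusted p = 1.1e-05). Ndufs8, an iron-sulphur subunit, rose by 1.11 ± 0.17 and Ndufab1, the mitochondrial acyl carrier protein, by 1.05 ± 0.20. Of the 4 other probe sets of Ndufab1 none rose in the blocked fit over all probe sets. The brightest of these gave 0.40 (adjusted p = 0.089), and 1 below the median probe set fell by 0.49 (adjusted p = 0.043). Ndufc2 rose by 0.84 ± 0.14. Ndufa6 and Ndufb4 gave -0.09 and -0.07 and did not pass, and Ndufb4 lay below the median probe set.

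Among the 8 assembly factors, 5 rose with the block. Ndufaf6, which passed without the block too, measured 4.59, 4.22 and 4.42 without antigen and 5.48, 5.27 and 5.13 with persistent antigen (0.88 ± 0.22, adjusted p = 0.040). These groups did not overlap. Ndufaf2 rose by 1.03 ± 0.19 with the block (adjusted p = 0.00056, 0.053 without). Ndufaf4 gave -0.30 ± 0.21 and did not pass.

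Complex IV held both directions. All 9 genes that rose with the block were general subunits, of 10. Cox5a, a subunit of the matrix side, rose by 1.36 ± 0.19 (adjusted p = 3.3e-05, 0.52 without the block). It measured 9.67, 7.61 and 9.64 without antigen and 10.91, 9.06 and 11.04 with persistent antigen. Both groups had a low replicate 2, and they overlapped. Cox4i1, the common isoform of subunit 4, rose by 0.74 ± 0.17, while the lung isoform Cox4i2 gave -0.01. Cox6b1 rose by 0.96 ± 0.16 and Cox7a2 by 0.76 ± 0.15. The isoforms of heart, muscle and testis, Cox6a2 (-0.10), Cox6b2 (0.22), Cox7a1 (0.10), Cox7b2 (0.01), Cox8b (0.45) and Cox8c (-0.38), and Ndufa4l2 (0.00), did not pass, and 4 of these 7 lay below the median probe set.

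Over all 16 arrays, without or with the replicate block, Cox7a2l was the only one of the 91 genes that fell in a comparison of 2 groups. With replicates 1 and 3 alone and the block, Ndufb4 fell as well, by 0.55 ± 0.16 with anti-CD40 against PBS and transient antigen (adjusted p = 0.035). With PBS Cox7a2l measured 9.84, 9.95 and 10.32 without antigen, 9.98, 10.18 and 10.32 with transient antigen, and 9.11, 9.11 and 9.11 with persistent antigen. With anti-CD40 it measured 10.02 and 9.68 without antigen, 8.97 and 9.24 with transient antigen, and 9.15, 8.71 and 9.58 with persistent antigen. With PBS the persistent arrays lay below all other PBS arrays, and with anti-CD40 the arrays of both antigen groups lay below those without antigen. Cox7a2l fell by 0.93 with persistent against no antigen (± 0.17 SE, adjusted p = 0.00063 with the block, 0.062 without), and no single array left out ended that call. It fell by 1.05 ± 0.17 with persistent against transient antigen (adjusted p = 0.00036 with the block, 0.070 without). All 3 of its probe sets fell in both of these comparisons, with the block. Its gene lies at chr17:83501917-83514333 (GRCm38).

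In ATP synthase 10 of 17 genes rose with the block and none fell. Atp5l, subunit g of the membrane part, measured 5.95, 6.37 and 6.36 without antigen and 6.98, 7.89 and 7.51 with persistent antigen. The groups did not overlap, and the rise of 1.23 ± 0.31 passed without the block (adjusted p = 0.038) as well as with it (6.6e-06). Atp5b, the catalytic beta subunit, rose by 0.89 ± 0.21 (adjusted p = 0.0055 with the block, 0.36 without), whereas Atp5a1, the alpha subunit, gave 0.23 ± 0.15. There are 3 genes of subunit c of the membrane ring. Atp5g3 rose by 0.55 ± 0.14 with the block, while Atp5g1 gave 0.36 ± 0.17 and Atp5g2 0.14 ± 0.15 and did not pass. Whether these genes differ from each other was not tested. A second probe set of Atp5c1, the gamma subunit, fell by 0.69 where the brighter one rose by 0.42, both in the blocked fit.

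**Figure D2:**
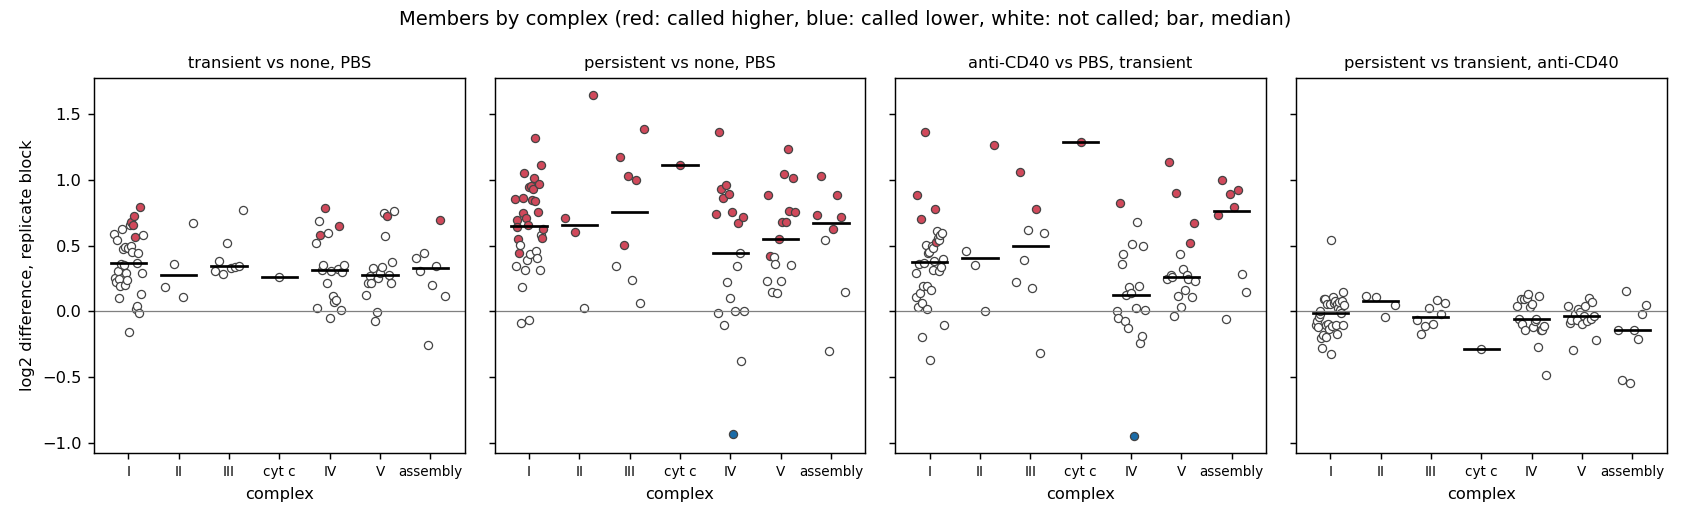
Log2 difference of each of the 91 genes by complex in 4 comparisons, from the fit with the replicate block, with the median of each complex as a bar, red for genes that rose, blue for genes that fell and white for those that did not pass. The second panel holds 55 red points and 1 blue one, Cox7a2l, and the fourth, persistent against transient antigen with anti-CD40, none of either.

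Transient antigen with PBS gave smaller differences from no antigen, with a median of 0.33 against 0.03 over all genes. No member passed without the block with limma, against 0.126% of all genes (0.0934% higher, 0.033% lower), and 7 of 91 had an unadjusted p under 0.05. With the block 10 rose and none fell, against 2.89% of all genes called, 2.02% higher and 0.868% lower. The largest were Ndufs8 (0.80 ± 0.17, adjusted p = 0.015), Cox6b1 (0.79 ± 0.16, adjusted p = 0.0075), Ndufc1 (0.73 ± 0.17, adjusted p = 0.020) and Atp5l (0.72 ± 0.15, adjusted p = 0.010). Ndufaf7, Ndufb6, Ndufb9, Cox8b, Cox5b and Ndufc2 were the others. With 1 array left out, Cox8b was lost in 14 of 16 cases, Cox5b and Ndufaf7 in 10 and Ndufb6 in 9. Ndufc1 and Ndufc2 were each lost in 5, Ndufs8 and Ndufb9 in 4, and Cox6b1 and Atp5l in 1. Cox8b lay below the median probe set. Neither of the 2 other probe sets of Ndufb9 passed, and 1, above the median probe set, was lower. Within replicate numbers the median was 0.23, 0.53 and 0.24, the second again between runs. With the runs as the block 2 genes rose, Cox6b1 and Atp5l. Without replicate 2 of transient antigen the count with the block was 0, and leaving out 8 further arrays one at a time gave 3 to 6. The median without the block was 0.14 without replicate 2 of no antigen.

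Persistent against transient antigen with PBS gave a median of 0.27 against -0.05 over all genes. No member passed without the block, against 0.929% of all genes, and 8 had an unadjusted p under 0.05. With the block 16 rose and 1 fell, against 5.99% and 5.44% of all genes, 11.4% in all. Sdhd rose by 0.97 ± 0.22 (adjusted p = 0.0063) and Cycs by 0.85 ± 0.21 (adjusted p = 0.012). Uqcr11, at 6.12, 6.49 and 6.74 with transient antigen, rose by 0.79 ± 0.20 (adjusted p = 0.012). Cycs, at 9.87, 10.15 and 9.52 with transient antigen, overlapped with no antigen and not with persistent antigen. Each of these 3 calls was lost in 1 to 3 of 16 cases with 1 array left out. The count of members was 3 to 8 when any 1 of the 6 PBS arrays with antigen was left out, lowest without replicate 1 of persistent antigen.

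**Figure D3:**
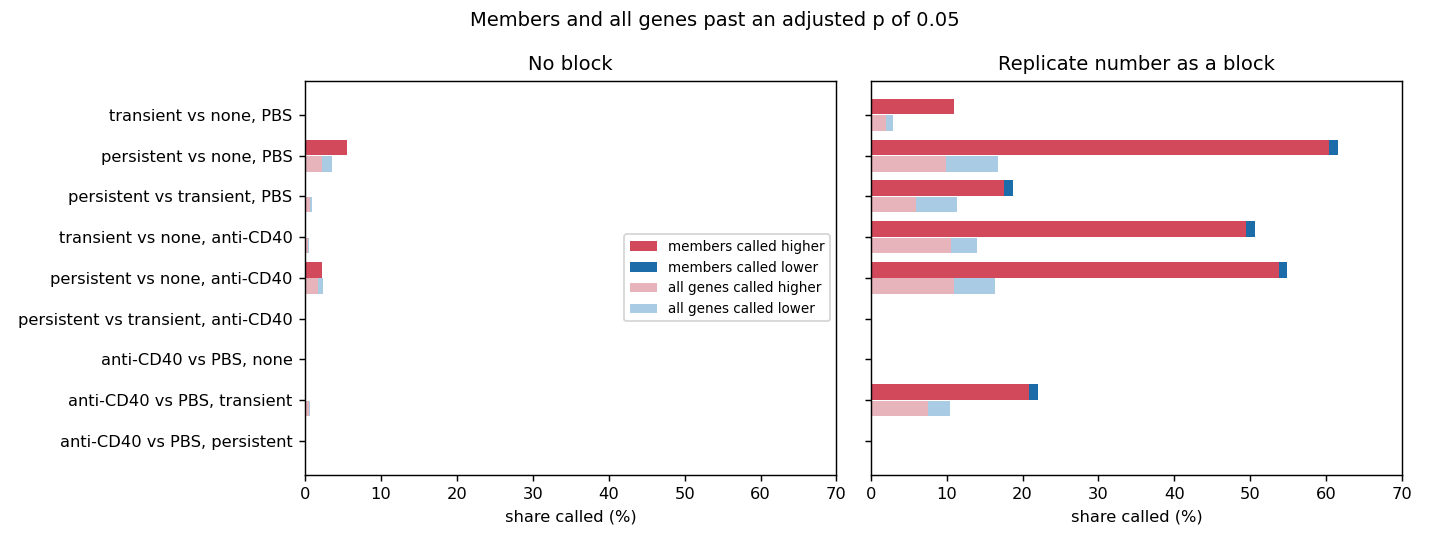
Share of the 91 genes (dark bars) and of all 18193 genes (pale bars) with an adjusted p under 0.05, higher in red and lower in blue, without the block (left) and with the replicate block (right), for 9 comparisons. With the block 60.4% of the 91 genes are higher with persistent than with no antigen with PBS, against 9.93% of all genes.

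Anti-CD40 was then compared with PBS in each antigen regime. With transient antigen the median was 0.22 without the block and 0.33 with it, against -0.03 over all genes in both. No gene of the 91 passed without the block with limma, against 0.638% of all genes, and 10 had an unadjusted p under 0.05. With the block 19 rose and 1 fell, against 7.59% and 2.92% of all genes, 10.5% in all. Within replicate 1 the median was 0.34 and within replicate 2 it was 0.28, each inside 1 run. The count fell to 5 without replicate 1 and to 11 without replicate 2 of the transient anti-CD40 group, and to 11 without replicate 1 of transient antigen with PBS.

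Cycs measured 9.87, 10.15 and 9.52 with transient antigen and PBS and 10.78 and 11.36 with anti-CD40. The groups did not overlap, and the difference was 1.29 ± 0.24 with the block (adjusted p = 0.0015, 0.092 without), or adjusted p = 0.053 without replicate 2 of the anti-CD40 group. Ndufab1 measured 7.18, 6.72 and 7.51 with PBS and 8.67 and 8.07 with anti-CD40, also without overlap. It rose by 1.36 ± 0.23 with the block (adjusted p = 0.00053), and this call held with each array left out. Sdhd rose by 1.26 ± 0.25, Atp5b by 1.13 ± 0.24 and Uqcr11 by 1.06 ± 0.23, each lost when 1 array of the anti-CD40 group was left out (adjusted p = 0.076, 0.088 and 0.15). Of the 8 assembly factors 5 rose, among them Ndufaf2 by 0.998 ± 0.217 and Ndufaf4 by 0.89 ± 0.23, with a median of 0.76 over the 8. All 5 were lost without replicate 1 of the anti-CD40 group, with Ndufaf2 at 0.97 (adjusted p = 0.085) and Ndufaf4 at 0.51 (adjusted p = 0.49), and Ndufaf4 also without replicate 1 of transient antigen with PBS (adjusted p = 0.16). Of the 19 complex IV genes 1 rose, Cox5a, by 0.82 ± 0.22, and it was lost without either array of the anti-CD40 group (adjusted p = 0.088 and 0.19). Cox7a2l fell by 0.94 ± 0.20 (adjusted p = 0.0036 with the block, 0.12 without, and 0.14 without replicate 1 of the anti-CD40 group).

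Of the 3 subunit c genes, Atp5g1 passed in this comparison. It measured 6.55, 7.03 and 7.12 with transient antigen and PBS and 7.79 and 7.71 with anti-CD40, without overlap. Atp5g1 rose by 0.90 ± 0.20 with the block (adjusted p = 0.0046, 0.22 without), while Atp5g3 gave 0.44 ± 0.17 and Atp5g2 0.12 ± 0.18, neither of which passed, and the differences between these genes were not tested. The second probe set of Atp5g1, near background at a mean of 2.60, gave -0.07 (adjusted p = 0.86).

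**Figure D4:**
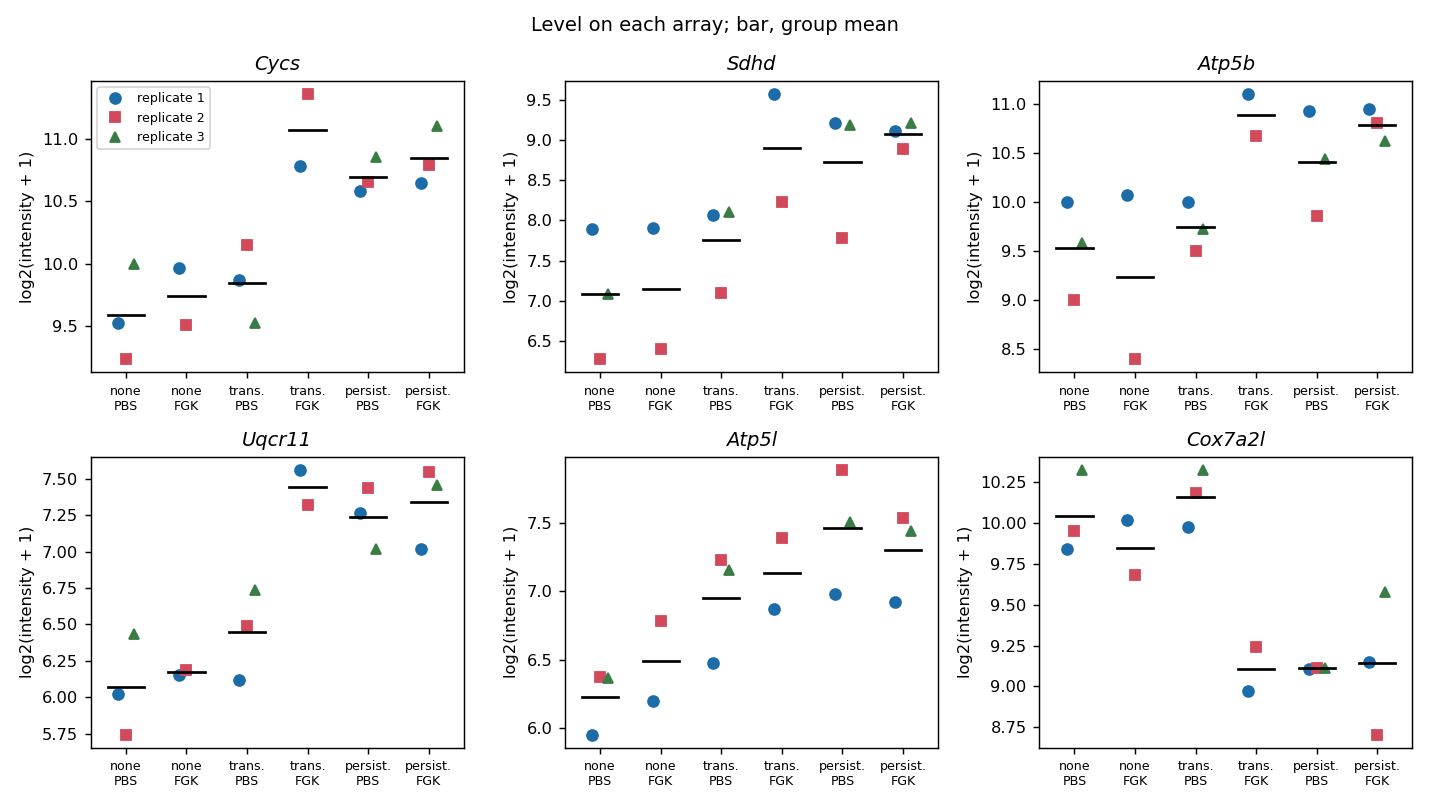
Level of 6 genes on each of the 16 arrays, as log2(intensity + 1), by group, with a marker for each replicate number and a bar at the group mean. Cycs and Uqcr11 are high in the persistent groups and in transient antigen with anti-CD40, and Cox7a2l is low in the same 3 groups.

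Without antigen, anti-CD40 gave a median of -0.03 without the block and 0.11 with it. No member passed with limma in either fit, against 0% and 0.0055% of all genes, and 0 and 1 had an unadjusted p under 0.05. With persistent antigen the median was 0.06 in both fits and no member passed, against 0% of all genes, with 0 and 2 at an unadjusted p under 0.05. Cycs, for example, gave 0.22 ± 0.24 without antigen and 0.16 ± 0.21 with persistent antigen, both with the block. Without antigen, 50 of the 91 genes were higher with anti-CD40 in both replicate numbers, and 8 were lower. This is 54.9% higher, against 28.2% of all genes, where transient antigen gave 69.2% against 28.2%. After a further normalization, cyclic loess, the median with the block was 0.20 without antigen and 0.21 with transient antigen.

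With anti-CD40 in both groups, transient against no antigen gave a median of 0.62, and persistent against no antigen 0.69 without and 0.57 with the block. Without the block 0 and 2 members rose and none fell, with 17 and 26 at an unadjusted p under 0.05. Of all genes 0.423% and 1.64% rose, and 0.572% and 2.37% passed in either direction. The 2 were Uqcr11 (1.17 ± 0.27, adjusted p = 0.038) and Atp5g1 (1.14 ± 0.27, adjusted p = 0.041). With 1 array left out, these unblocked calls were lost in 9 of 16 cases for Uqcr11 and 12 for Atp5g1. With the block 45 and 49 rose and 1 fell in each, Cox7a2l. Of all genes 10.5% and 10.9% rose and 3.48% and 5.5% fell, 14% and 16.4% in all. These counts moved with single arrays. Without replicate 2 of no antigen with anti-CD40, 14 members passed in each comparison with the block, and the medians without the block were 0.39 and 0.42. With transient antigen the blocked count was also 17 without replicate 1 and 26 without replicate 2 of its anti-CD40 group, and with persistent antigen 33 without replicate 2 of its anti-CD40 group. The falls of Cox7a2l, by 0.74 and 0.82, were each lost in 2 of 16 cases. Atp5b, Sdhd, Ndufab1, Ndufc1 and Cox5a rose in both, by 1.65, 1.75, 1.49, 1.27 and 1.35 with transient and by 1.57, 1.80, 1.30, 1.17 and 1.44 with persistent antigen. Both comparisons share the arrays without antigen.

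Persistent against transient antigen with anti-CD40 gave a median of 0.07 without and -0.04 with the block. No member passed with limma, against 0.0055% and 0.077% of all genes, and 1 and 4 had an unadjusted p under 0.05. Cox7a2l gave -0.07 with the block, and the transient group here is 2 arrays.

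The difference of the anti-CD40 effect between transient and no antigen was tested as an interaction. Without the block no member passed and 5 had an unadjusted p under 0.05, against 0% of all genes called. With the block 3 passed, all higher, against 3.09% of all genes: Atp5b (1.44 ± 0.34), Atp5g1 (1.23 ± 0.27) and Ndufab1 (1.14 ± 0.31). This is 3.3% of the 91 genes, a share near that of all genes. Between persistent and no antigen no member passed in either fit, against 0% of all genes, with 1 and 4 at an unadjusted p under 0.05. Between persistent and transient antigen 0 passed without the block, against 0% of all genes and with 5 at an unadjusted p under 0.05. With the block 1 passed, Ndufaf2 (-1.24 ± 0.29, lower), which is 1.1% of the 91 genes against 1.52% of all genes.

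Another 5 mitochondrial gene lists were counted beside the subunits, with the replicate block. When persistent antigen was set against none in PBS recipients, 8 of 17 genes of the citrate cycle and pyruvate dehydrogenase rose and none fell, against 9.93% and 6.79% of all genes, among them Dld (1.54 ± 0.31), Idh3a (1.32 ± 0.28) and Pdhx (1.22 ± 0.22). Of 9 carriers and channels 5 rose, led by Slc25a4, an ADP and ATP carrier (1.18 ± 0.18), Vdac1 (1.01 ± 0.19) and Vdac2 (0.83 ± 0.17). Of 35 further assembly factors 10 rose and 2 fell, with Cox17, a copper chaperone of complex IV, at 1.52 ± 0.24, Cox18 at 1.03 ± 0.23, and Ttc19, of complex III, at -1.18 ± 0.19. Of 18 import genes 4 rose and 1 fell. Of 17 regulators of mitochondrial biogenesis 2 rose, 1 of them Gabpb1, a subunit of GABP, and 1 fell, Ppargc1b. For the regulators alone these counts are near the shares of all genes. For transient against no antigen with PBS the same lists gave 0, 1, 1, 0 and 0 rises and 0, 0, 1, 0 and 1 falls, in the order named here, against 2.02% and 0.868% of all genes. Slc25a4 (1.05 ± 0.18) and Surf1, a complex IV assembly factor (0.96 ± 0.18), rose, and Ttc19 (-0.80 ± 0.19) and Pprc1 (-0.87 ± 0.22) fell. For anti-CD40 against PBS with transient antigen 7 of 17, 3 of 9, 3 of 35, 10 of 18 and 3 of 17 rose, in that order, and 0, 0, 1, 0 and 1 fell, against 7.59% and 2.92% of all genes. The medians for persistent against no antigen with PBS were 0.42, 0.66, 0.23, 0.19 and -0.13 over these lists, in the same order, against -0.03 over all genes. Without the block no gene of the lists passed in these 3 comparisons except Hspa9, an import gene, which rose with anti-CD40 and transient antigen (1.67 ± 0.34, adjusted p = 0.042).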

How the data were processed

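RNA of the sorted T cells was amplified in 2 rounds, labelled and hybridised to 16 Affymetrix arrays of 45101 probe sets, 1 array a sample, per the labels' protocols. The deposited values are intensities made by the authors with RMA, per the submitters' processing notes, with no version given. Their size shows a linear scale, so log2(intensity + 1) was taken and nothing was normalized again. This shrinks differences of dim genes. The number of arrays limits the precision. Of the probe sets, 34945 had 1 gene symbol, 932 had several and 9211 were not found in the name table; the brightest probe set stood for each gene. A model of 6 group means over all 16 arrays was fitted with limma 3.58.1 (R 4.3.3, data.table version 1.17.8) with an intensity trend, with Benjamini-Hochberg adjustment over 18193 genes and calls under 0.05. The fits without and with the replicate block were also run on simulated data with known changes. Those data held replicate effects and independent noise by design, so they cannot show whether the block suits these arrays.

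The replicate numbers were taken to pair arrays from the data, since deviations of arrays with the same number correlated at 0.48 to 0.81 in 36 pairs (-0.81 to 0.60 over 70 pairs with different numbers, median -0.53). The fit with the number as a block is therefore given wherever it changes a call. Because deviations within a group cancel out, the low correlations over pairs with different numbers are partly built in. Alternatives were the array-number runs as a block, cyclic loess, a pseudocount of 16, a filter at the median probe set, the mean over probe sets, no intensity trend and leaving out each array. Named genes were drawn from Cycs, the brightest and dimmest of each complex, isoforms, assembly factors and the called members, up to the 6 largest rises and 3 largest falls in a comparison. Some genes under these headings, such as Uqcr10, the dimmest of complex III, Cox6a1 or Ndufaf1, are given no values. Others named in the text, such as Uqcrc2 or Sdhc, were chosen after their values were seen. The genes and lists were chosen with earlier results of these data known. No protein sequence was used here.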

Additional observations from a re-analysis of the deposited data

Results flagged for a closer look

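For 4 genes the effect of anti-CD40, or of the duration of antigen, differed between groups by an interaction term fitted with the replicate block; none passed without the block. The 3 genes of the first difference are 3.3% of the 91, against 3.69% of all genes called, and the 1 of the second is 1.1%, against 1.79%, so neither share stands above that of all genes. The anti-CD40 effect was larger with transient than with no antigen for Atp5b, by 1.44 (adjusted p = 0.022), for Atp5g1, by 1.23 (adjusted p = 0.016), and for Ndufab1, by 1.14 (adjusted p = 0.049). On the arrays Atp5b measured 9.998, 8.997 and 9.582 without antigen with PBS, 10.077 and 8.397 with anti-CD40, 9.999, 9.501 and 9.726 with transient antigen and PBS, and 11.10 and 10.67 with transient antigen and anti-CD40. The calls were lost when 1 array was left out in 5 of 16 cases for Atp5b, 2 for Atp5g1 and 12 for Ndufab1; without replicate 2 of no antigen with anti-CD40 the adjusted p was 0.20, 0.13 and 0.30. With cyclic loess and the block Ndufab1 was also lost (0.96, adjusted p = 0.059). The second probe set of Atp5g1, near background, gave -0.06, and none of the 4 other probe sets of Ndufab1 passed, with 1 of them negative (-0.24).

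For Ndufaf2 the difference between persistent and transient antigen changed by -1.24 from PBS to anti-CD40 (adjusted p = 0.032). With PBS persistent antigen was higher, by 0.72 with the block. With anti-CD40 the mean was lower with persistent (5.80) than with transient antigen (6.19). Ndufaf2 measured 5.31, 5.16 and 5.51 with transient antigen and PBS, 6.36 and 6.02 with transient antigen and anti-CD40, 6.23, 5.68 and 6.23 with persistent antigen and PBS, and 6.03, 5.10 and 6.27 with persistent antigen and anti-CD40. The call was lost in 9 of 16 cases, and the adjusted p was 0.19 without replicate 1 of transient antigen with anti-CD40.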

How the results depend on the processing

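Counts of the 91 genes past the threshold depended on a block. The replicate block raised them from 0 to 10 (transient against no antigen, PBS), 5 to 56 (persistent against no antigen, PBS), 0 to 17 (persistent against transient, PBS), 0 to 46 (transient against no antigen, anti-CD40), 2 to 50 (persistent against no antigen, anti-CD40), 0 to 20 (anti-CD40 with transient antigen), 0 to 3 (interaction, transient) and 0 to 1 (interaction, duration). In that order, the array-number runs as a block gave 2, 52, 21, 27, 36, 23, 4 and 3, cyclic loess with the replicate block 7, 53, 18, 23, 28, 17, 3 and 2, and replicates 1 and 3 only with the block, chosen after seeing the data and with lone anti-CD40 arrays assumed to vary like the other groups, 5, 50, 18, 23, 20, 22, 4 and 5. Without the block, persistent against no antigen with PBS gave 9 with cyclic loess, 8 with the filter at the median probe set and 9 with no intensity trend. Persistent against transient antigen with PBS gave 1 with the filter and 1 with no trend. Transient against no antigen with anti-CD40 gave 2, 1 and 3, and 1 with the mean of probe sets, and persistent against no antigen with anti-CD40 gave 4 under each of these 4. Anti-CD40 with transient antigen gave 2 with cyclic loess and 1 with no trend. The median for persistent against no antigen with anti-CD40 was 0.353 with cyclic loess and 0.334 with loess and the block, against 0.689 and 0.569; for transient against no antigen with anti-CD40 it was 0.314 with cyclic loess against 0.623, and with PBS 0.218 against 0.332. For anti-CD40 against PBS, loess and the block gave 0.203 without antigen, against 0.112 with the block alone. With transient antigen these were 0.209 and 0.326. The median of the interaction with transient antigen was 0.039 with loess and the block, against 0.231 with the block alone. The cause was not tested. With 1 array left out, the counts in the same order were 0, 0 to 6, 0, 0 to 2, 0 to 3, 0 to 1, 0 and 0 without the block, and 0 to 12, 47 to 59, 3 to 20, 14 to 56, 14 to 53, 5 to 23, 0 to 8 and 0 to 3 with it; the other 4 comparisons stayed at 0 in each. Some unblocked differences changed sign when 1 array was left out: with anti-CD40, transient against no antigen, Atp5g3 to -0.158 and Sdha to -0.004 without replicate 2 of no antigen, and Ndufc1 to -0.380 without it and -0.033 without replicate 1 of transient antigen; with PBS, Ndufc1 to -0.355 without replicate 2 of no antigen. Their highest values with 1 array left out were 1.847 (Atp5g3), 1.42 (Sdha), 2.927 (Ndufc1, anti-CD40) and 1.835 (Ndufc1, PBS). Of 73 named gene and comparison pairs, the replicate block added a call to 66 and ended none. The pairs were picked because they passed without or with this block, so the 66 follow from that choice. They do not show how firm the calls are. Cyclic loess without the block ended 4 calls.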
